A study of Mus musculus with 8 samples.

Results

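The vacuolar H+-ATPase (V-ATPase) is the proton pump that acidifies lysosomes and endosomes. Its members here are 38 genes of the 19505 named on the array. They were chosen by symbol, as every gene whose name begins with Atp6v or Atp6ap, with Tcirg1 and 12 genes of lysosomal and endosomal ion transport added (Clcn3, Clcn5, Clcn6, Clcn7, Ostm1, Mcoln1, Mcoln2, Mcoln3, Tpcn1, Tpcn2, Tmem175 and Hvcn1). The 38 fall into 9 genes of V0, 13 of V1, 3 of accessory subunits, 12 of channels and exchangers, and Atp6v1fnb, a neighbour of Atp6v1f that carries its prefix and is not a subunit. Each was read by 1 probe set. Atp6v0c, the gene of the proton-carrying ring of V0, has no probe set named for it in the annotation used and was not analysed here.

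Expression was measured by array in splenic type 1 conventional dendritic cells (cDC1), the subset that presents antigen to CD8 T cells, from untreated wild-type C57BL/6 mice. The cells had been sorted by dye into a TMRM/MG-high fraction (4 arrays) and a TMRM/MG-low fraction (4 arrays). TMRM accumulates in mitochondria according to their membrane potential, and the labels leave MG unexplained. They give neither the age nor the sex of the mice, nor whether a sample came from 1 mouse or a pool. The p-values set each difference between fractions against the variation among these arrays. That variation could be partly technical and need not be that between mice.

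The pump has a membrane sector, V0, that carries protons, and a cytosolic sector, V1, that splits ATP, and the sectors come apart and rejoin to switch the pump off and on. Chloride exchangers, cation channels and proton leaks of the same membranes balance the charge that the pump moves and release calcium, sodium or protons. In dendritic cells lysosomal pH sets how quickly engulfed antigen is degraded, and cDC1 are known for slow acidification that spares antigen for presentation on MHC class I.

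Transcription of many lysosomal genes is controlled by TFEB and its relatives, which bind an E box extended on both sides. Promoter windows from RefSeq (GRCm38.p6), each 250 bases before to 50 after a transcript start, covered 29 of the 38 genes. The letters TCACGTGA, a palindrome that reads alike on both strands, stood in the windows of 6 of these 29 genes (20.7%), against 1.12% of all 27025 genes with a window. The core CACGTG, which the longer word contains, stood in those of 8 of 29 (27.6%, against 8.09% of all genes). The word was looked for because it belongs to lysosomal genes, and the members were chosen as genes of that kind. Its higher share is therefore no independent finding about them. The 6 sites are shown with capitals marking the 8 letters.

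Atp6v0d1 (chr8:105566050-105566079, minus strand): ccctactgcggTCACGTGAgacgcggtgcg
Atp6v0e (chr17:26676387-26676416, plus strand): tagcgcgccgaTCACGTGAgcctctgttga
Atp6v1a (chr16:44139373-44139402, minus strand): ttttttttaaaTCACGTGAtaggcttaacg
Clcn6 (chr4:148038821-148038850, minus strand): cccggggccagTCACGTGAggcgcggatcc
Clcn7 (chr17:25133386-25133415, plus strand): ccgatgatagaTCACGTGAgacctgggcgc
Mcoln1 (chr8:3500462-3500491, plus strand): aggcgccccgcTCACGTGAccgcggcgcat

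None of these 6 genes passed the test between the fractions described next, while 3 of the 4 genes that rose (Atp6v1c1, Atp6v1g1 and Atp6v1h) had no window and could not be searched. All 6 differences were positive, between 0.10 and 0.28 on the log2 scale with a median of 0.19, and the other 23 genes with a window had a median of 0.13, with 15 of them positive. A match of letters does not show that a factor binds there.

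All 3 called genes with a window, Tcirg1 and Tpcn2, which fell, and Atp6ap2, which rose, held neither word, and most other members with a window held neither. The 250 upstream bases of Tcirg1 and Tpcn2 are shown because these genes had the most negative differences of the 38, for Tcirg1 before the most upstream of its 3 annotated starts.

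Tcirg1 (chr19:3907134-3907383, minus strand): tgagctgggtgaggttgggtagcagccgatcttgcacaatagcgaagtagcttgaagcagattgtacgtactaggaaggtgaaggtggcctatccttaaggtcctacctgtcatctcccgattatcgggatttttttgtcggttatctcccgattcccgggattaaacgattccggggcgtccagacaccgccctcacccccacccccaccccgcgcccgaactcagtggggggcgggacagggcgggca
Tpcn2 (chr7:145284012-145284261, minus strand): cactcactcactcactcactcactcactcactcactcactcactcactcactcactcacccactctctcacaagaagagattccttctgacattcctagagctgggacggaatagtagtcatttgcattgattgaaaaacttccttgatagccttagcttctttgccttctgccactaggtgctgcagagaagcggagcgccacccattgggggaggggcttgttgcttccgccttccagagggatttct

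In TMRM/MG-high cDC1, expression of the V0 gene Tcirg1 and of the cation channel gene Tpcn2 was lower, and expression of the V1 genes Atp6v1c1, Atp6v1g1 and Atp6v1h and of the accessory gene Atp6ap2 was higher. These 6 of 38 passed limma's test at an adjusted p of 0.05, taken over all 22206 probe sets tested. The 4 rises compare with 5.28% of all probe sets called higher, and the 2 falls with 2.96% called lower. Differences are on the log2 scale, TMRM/MG-high minus TMRM/MG-low, with limma's moderated standard error (SE). Of the 38 differences 29 were positive (76.3%, median 0.16), against 52.1% of all probe sets tested (median 0.01). Above the negative control median 26 of 34 members were positive (76.5%, median 0.18), against 54.6% of 16859 probe sets (median 0.02). Of those 16859, 1153 were called higher and 619 lower.

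**Figure D1:**
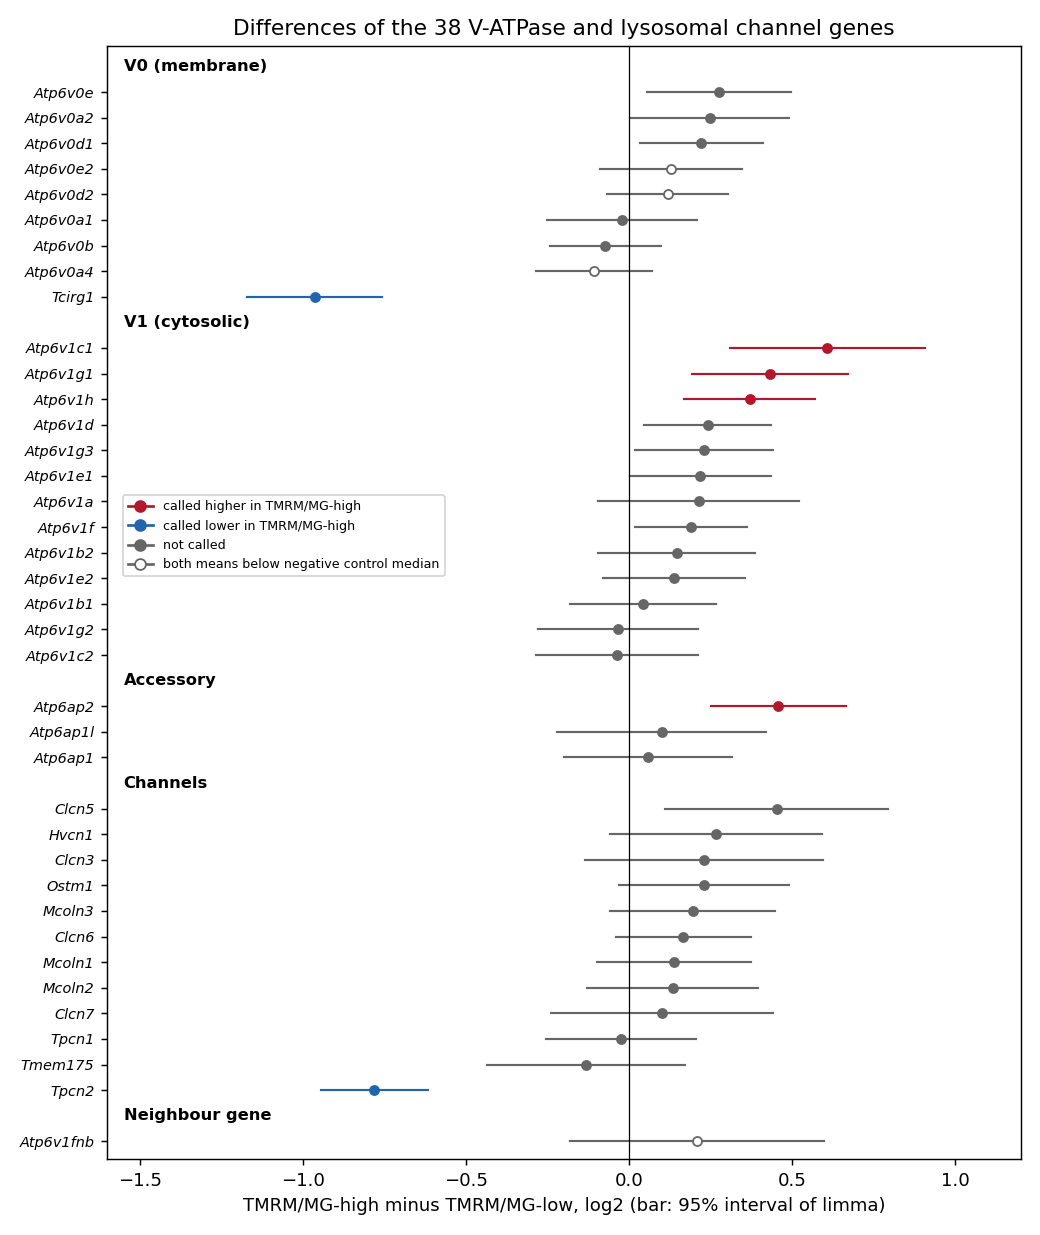
Difference between TMRM/MG-high and TMRM/MG-low cDC1 (x axis, log2) of each of the 38 genes, ordered within its group, with the 95% interval of limma; colour marks the calls and open circles the genes whose means lay below the negative control median in both fractions. Tcirg1 (-0.96) and Tpcn2 (-0.78) lie apart on the left, and the 4 called rises lie between 0.37 and 0.61.

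Some properties of the arrays differed between the fractions too. The 8 spike-in RNAs averaged 9.06 ± 0.25 in TMRM/MG-high and 9.99 ± 0.22 in TMRM/MG-low arrays (SD, n = 4 each) with no overlap, so spike-in level and fraction can hardly be told apart. With that level as a covariate limma called 0 of all 22206 probe sets (472 higher and 568 lower at an unadjusted p under 0.05), so every call given here, pathway and marker lists included, was lost. Of the 38 genes 3 had an unadjusted p under 0.05 in that fit, all lower: Tcirg1 (95% interval -1.42 to -0.35), Tpcn2 (-1.13 to -0.30) and Atp6v1a (-1.16 to -0.14). All 10 measured cDC1 markers were above the negative control median, and their mean log2 level was 12.002 to 12.154 in TMRM/MG-high and 11.924 to 12.196 in TMRM/MG-low arrays, with none called by limma (2 higher and 1 lower at an unadjusted p under 0.05). The marker lists were drawn up with earlier results of these data known, so their counts are no independent evidence about the fractions. For the marker counts, 5.28% of all probe sets were called higher and 2.96% lower (15.3% and 10.1% at an unadjusted p under 0.05). Of 13 plasmacytoid dendritic cell markers 11 rose (mean level 9.95 to 10.4 in TMRM/MG-high, against 9.23 to 9.41 in TMRM/MG-low arrays). Of 10 T and NK cell markers 9 had negative differences (median -0.73), 3 passed the test and 8 had an unadjusted p under 0.05, all lower. Their mean level was 8.98 to 9.46 in TMRM/MG-high, against 9.28 to 10.02 in TMRM/MG-low arrays. All 6 neutrophil markers had negative differences (median -0.81), 1 of them called, Csf3r, and 3 at an unadjusted p under 0.05 (mean level 8.70 to 9.90 in TMRM/MG-high, against 9.83 to 10.6 in TMRM/MG-low arrays). Of 8 markers of macrophages and monocytes (median 0.07) 1 was called, Ly6c1, higher by 0.72. The similarly named Ly6c2, counted with the plasmacytoid dendritic cell markers, was higher by 0.85. None was called among 7 of cDC2, 5 of B cells and 2 of erythroid cells (unadjusted p under 0.05 for 1 of cDC2 and none of B or erythroid cells). In sorted populations fewer cells of a type and less RNA per cell cannot be told apart.

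V0 holds the a subunit, which forms the proton half-channels and whose isoforms direct the pump to different membranes. Tcirg1 encodes a3, the isoform of lysosomes and secretory lysosomes, which osteoclasts need to resorb bone. Its log2 signal was 10.15, 10.22, 10.20 and 10.31 in TMRM/MG-high replicates 1 to 4, against 11.26, 11.25, 10.94 and 11.29 in TMRM/MG-low replicates 1 to 4. Every TMRM/MG-high array lay below every TMRM/MG-low array, as in 6.37% of all probe sets, and TMRM/MG-low replicate 3 was the lowest of its fraction. Tcirg1 fell by 0.96 on the log2 scale (SE 0.095, limma adjusted p = 0.00065), a level 1.95-fold higher in TMRM/MG-low. It ranked 18 from the most negative of the 22206 differences.

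T and NK cell and neutrophil markers moved the same way, and their part in the Tcirg1 and Tpcn2 differences was not tested. Plasmacytoid dendritic cell markers (11 of 13 called, median 0.85) moved the same way as Atp6v1c1, Atp6v1g1, Atp6v1h and Atp6ap2. Their part in those rises was not tested either. TMRM/MG-low replicate 3, the lowest of its fraction for Tcirg1, was also the lowest of it for T and NK cell markers (mean level 9.28), and stood at 10.54 for neutrophil markers. For Tpcn2 the lowest array of that fraction was replicate 2 (10.81). That array was the highest of the fraction for T and NK cell markers (10.02) and for neutrophil markers (10.56).

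The other a isoforms were not called. Atp6v0a2, of the Golgi and endosomes, had 10.77, 10.81, 10.88 and 10.53 in TMRM/MG-high against 10.36, 10.34, 10.75 and 10.54 in TMRM/MG-low arrays, an overlapping difference of 0.25 (SE 0.11, adjusted p = 0.188). Atp6v0a1 differed by -0.02 (95% interval -0.25 to 0.21), and Atp6v0a4, the isoform of kidney and inner ear, had means of 6.24 in TMRM/MG-high and 6.35 in TMRM/MG-low, below the negative control medians (6.86 in TMRM/MG-high and 6.76 in TMRM/MG-low).

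Within each array the log2 ratio of Tcirg1 to Atp6v0a2 was -0.52 ± 0.21 in TMRM/MG-high and 0.69 ± 0.34 in TMRM/MG-low (SD, n = 4 each), a change of -1.21. The ratio of Tcirg1 to Atp6v0a1 changed by -0.94. No ratio to Atp6v0a4 is read, since that gene lay below the negative control median. Only changes of such ratios between fractions can be read, since probe sets differ in brightness. The fractions did not overlap in these ratios or in that of Tpcn2 to Tpcn1, nor in that to Atp6v0a4, and overlapped in the other 21 of 25 ratios of related genes. Each of the 3 that can be read had an exact permutation p = 0.0286 (two-sided), the smallest that 4 against 4 arrays can give. Benjamini-Hochberg adjustment over the 25 made it 0.179. That correction cannot be passed unless many of the 25 ratios reach the smallest p, so nothing is concluded from it. The ratios contain the single-gene differences and are no separate support for them.

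**Figure D2:**
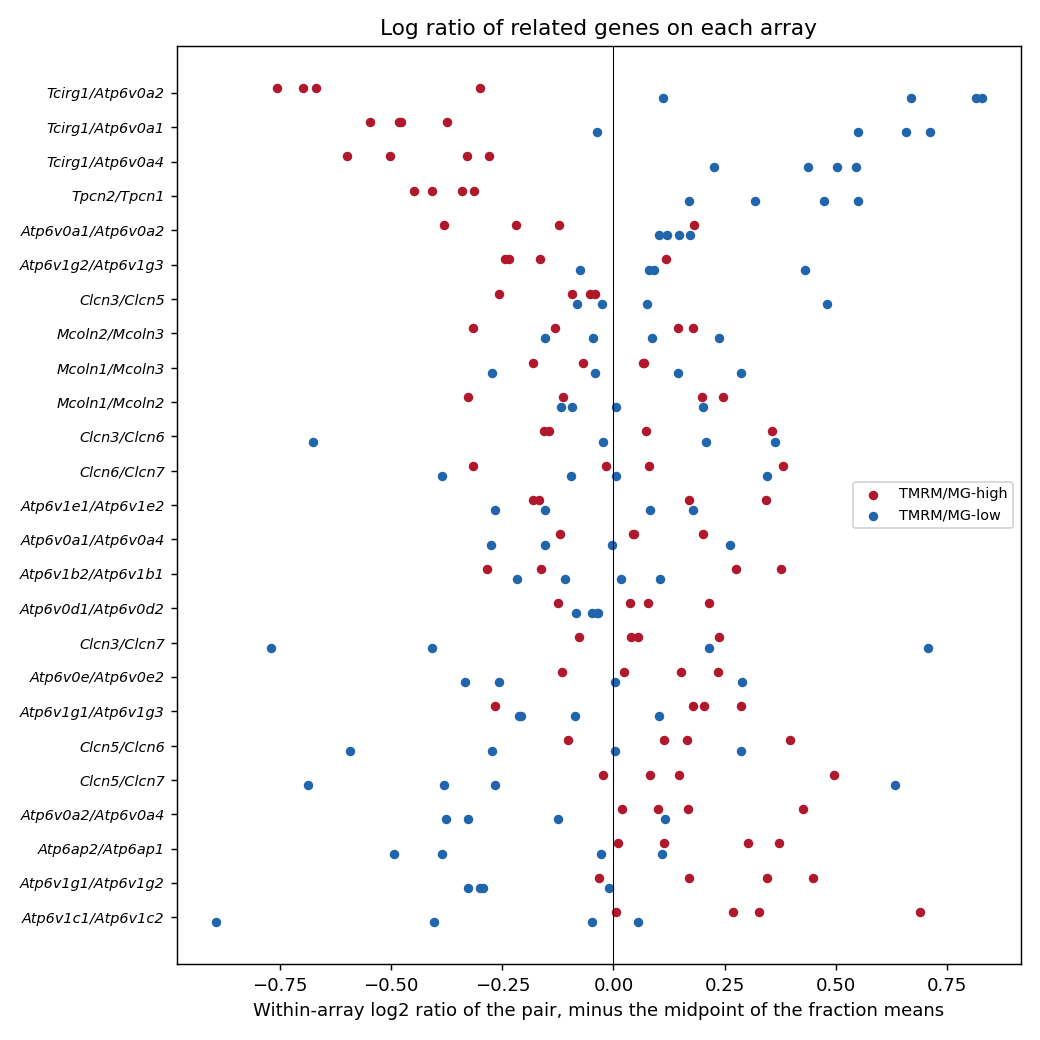
Log2 ratio of 2 related genes on each array (x axis, shifted so that the midpoint of the fraction means is 0) for 25 pairs, ordered by the change of the ratio between fractions; each point is 1 array. The ratios of Tcirg1 to Atp6v0a2 and Atp6v0a1 and of Tpcn2 to Tpcn1 separate the fractions, as does that of Tcirg1 to Atp6v0a4, which is not read because Atp6v0a4 lay below the negative control median, and the other 21 overlap.

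The remaining V0 genes were not called. At an unadjusted p under 0.05, 3 of the 9 V0 genes (Atp6v0e, Atp6v0a2 and Atp6v0d1) were higher, against 15.3% of all probe sets. Atp6v0d1, the d subunit that joins the rotating ring to the central stalk, had 9.95, 10.13, 9.91 and 10.11 in TMRM/MG-high against 9.89, 9.81, 9.83 and 9.69 in TMRM/MG-low arrays. The fractions did not overlap, with TMRM/MG-high replicate 3 just above TMRM/MG-low replicate 1, and the difference of 0.22 missed the threshold (adjusted p = 0.137). Atp6v0e, a small membrane subunit, had 11.74, 11.77, 11.71 and 11.77 in TMRM/MG-high against 11.30, 11.48, 11.75 and 11.36 in TMRM/MG-low arrays. It overlapped on TMRM/MG-low replicate 3 (difference 0.28, adjusted p = 0.112), and without that array it was 0.37 with limma adjusted p = 0.0211. Higher calls over all probe sets also went from 1173 to 1680 without that array. Atp6v0b, of the second type of ring subunit, differed by -0.07 (95% interval -0.24 to 0.10). The isoform genes Atp6v0d2 (0.12) and Atp6v0e2 (0.13) lay below the negative control median in both fractions.

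V1 genes leaned the other way from Tcirg1: 11 of 13 differences were positive with a median of 0.21, 3 were called higher and none lower (7 higher and 0 lower at an unadjusted p under 0.05, against 15.3% higher and 10.1% lower of all probe sets). In 5 of the 13 every TMRM/MG-high array was above every TMRM/MG-low array, as in 9.7% of all probe sets.

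Atp6v1c1 encodes the C subunit, which bridges V1 and V0 and leaves the complex when the sectors separate. It had 9.63, 10.07, 9.77 and 9.91 in TMRM/MG-high against 9.33, 8.85, 9.49 and 9.28 in TMRM/MG-low arrays. TMRM/MG-low replicate 2 was the lowest array, and the fractions did not overlap. The difference was 0.61 (SE 0.14, limma adjusted p = 0.0241), or 1.52-fold.

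Atp6v1g1, a G subunit of the peripheral stalks that hold V1 still, had 10.99, 11.28, 11.29 and 11.21 in TMRM/MG-high against 10.50, 10.81, 10.94 and 10.80 in TMRM/MG-low arrays. Replicate 1 was the lowest array of each fraction, and the fractions did not overlap. The difference was 0.43 (SE 0.11, limma adjusted p = 0.0343), or 1.35-fold.

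Atp6v1h, the H subunit that restrains ATP splitting in free V1, had 9.53, 9.43, 9.45 and 9.44 in TMRM/MG-high against 9.03, 8.91, 9.27 and 9.16 in TMRM/MG-low arrays. The TMRM/MG-high arrays were close together and all above the TMRM/MG-low arrays. The difference was 0.37 (SE 0.09, limma adjusted p = 0.0325), or 1.29-fold.

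The 3 V1 calls were sensitive to single arrays: Atp6v1h kept its call in 1, Atp6v1g1 in 2 and Atp6v1c1 in 3 of the 8 fits that left out 1 array, with limma adjusted p up to 0.084, 0.103 and 0.0778. Leaving out an array also lowers the power of the test. Higher calls over all 22206 probe sets ran from 183 to 1680 in those fits, against 1173 with all 8 arrays. All 3 stayed positive in those fits, with differences from 0.31 to 0.43, 0.34 to 0.50 and 0.48 to 0.69. With the spike-in covariate Atp6v1g1 (-0.060) and Atp6v1c1 (-0.034) turned negative and Atp6v1h was 0.18, and a repeated quantile normalization lost the call of Atp6v1h (limma adjusted p = 0.0517).

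Of the other V1 genes, Atp6v1d, a central stalk subunit, had 10.59, 10.80, 10.57 and 10.60 in TMRM/MG-high against 10.38, 10.39, 10.54 and 10.27 in TMRM/MG-low arrays, without overlap (difference 0.24, adjusted p = 0.117). Atp6v1f, the F subunit of the same stalk, had 12.88, 12.89, 12.82 and 12.80 in TMRM/MG-high against 12.54, 12.70, 12.75 and 12.64 in TMRM/MG-low arrays, also without overlap (0.19, adjusted p = 0.16). Neither passed the test. The catalytic A subunit gene Atp6v1a differed by 0.21 (95% interval -0.09 to 0.52), and the nucleotide-binding B subunit gene Atp6v1b2 by 0.15 (-0.10 to 0.39), neither called. Both had their lowest TMRM/MG-high value on replicate 1.

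The peripheral stalk gene Atp6v1e1 differed by 0.22 (adjusted p = 0.194) and its relative Atp6v1e2 by 0.14. Isoforms known mainly from kidney, testis or brain were Atp6v1b1 (0.04), Atp6v1c2 (-0.04), Atp6v1g2 (-0.03) and Atp6v1g3 (0.23, adjusted p = 0.161), none called. The ratio of Atp6v1c1 to Atp6v1c2 was 2.47 ± 0.28 in TMRM/MG-high and 1.83 ± 0.43 in TMRM/MG-low on the log2 scale (SD, n = 4 each), with overlap (exact permutation p = 0.0571). That of Atp6v1g1 to Atp6v1g2 was 2.14 ± 0.21 in TMRM/MG-high and 1.67 ± 0.15 in TMRM/MG-low (SD, n = 4 each), also overlapping (exact permutation p = 0.0571, and 0.204 for both after adjustment over the 25 ratios).

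**Figure D3:**
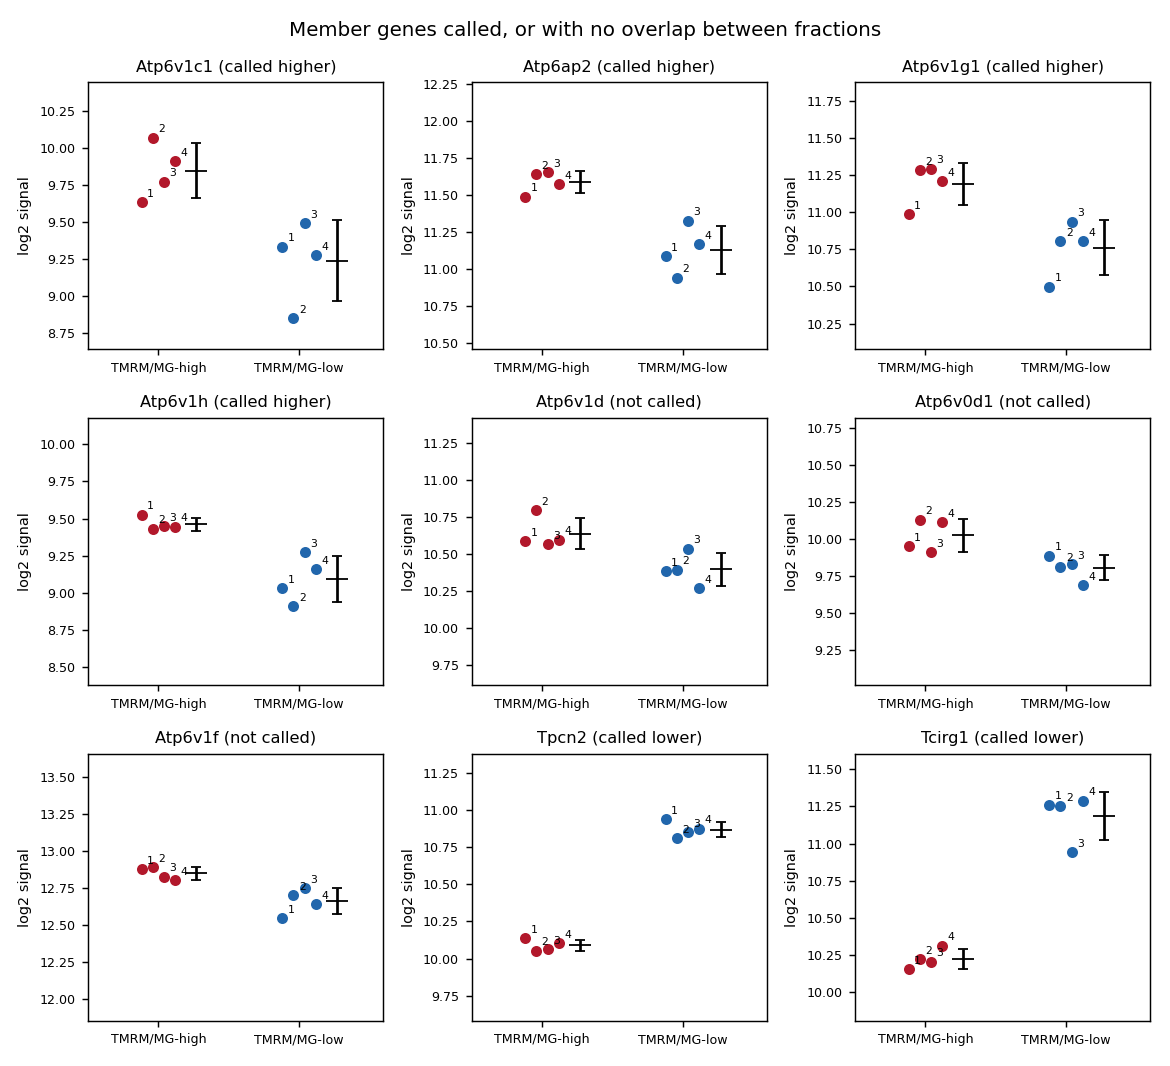
Log2 signal (y axis, the same span in every panel) on each array for the 9 genes that were called or whose fractions did not overlap; points are arrays numbered by replicate, and the bar is the mean with its SD (n = 4). TMRM/MG-high arrays lie above TMRM/MG-low arrays for 7 genes and below for Tpcn2 and Tcirg1.

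Accessory subunits assist assembly and sorting of the pump. Atp6ap2, the prorenin receptor, had 11.49, 11.64, 11.66 and 11.57 in TMRM/MG-high against 11.09, 10.94, 11.33 and 11.17 in TMRM/MG-low arrays. Every TMRM/MG-high array was above every TMRM/MG-low array. The difference was 0.46 (SE 0.095, limma adjusted p = 0.0178), or 1.37-fold, and the call was kept in 6 of the 8 fits without 1 array and lost without TMRM/MG-high replicate 2 (adjusted p = 0.0597) or 3 (0.0619). Without these arrays 183 and 255 of all 22206 probe sets were called higher, against 1173 with all 8. Atp6ap1, or Ac45, had 10.21, 10.01, 10.09 and 10.20 in TMRM/MG-high against 9.72, 10.17, 10.09 and 10.29 in TMRM/MG-low arrays and overlapped (0.06, adjusted p = 0.81). Its relative Atp6ap1l differed by 0.10, and the neighbour gene Atp6v1fnb, below the negative control median in both fractions, by 0.21, neither called.

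Channel and exchanger genes had 9 of 12 positive differences and a median of 0.15, with 0 called higher and 1 lower (1 and 1 at an unadjusted p under 0.05). Of all probe sets 52.1% were positive, with 5.28% called higher and 2.96% lower (15.3% and 10.1% at an unadjusted p under 0.05). The called channel gene was Tpcn2, a TPC family channel of late endosomes and lysosomes, gated by a phosphoinositide and by the messenger NAADP, that releases sodium and calcium. Tpcn2 had 10.14, 10.05, 10.06 and 10.10 in TMRM/MG-high against 10.94, 10.81, 10.85 and 10.88 in TMRM/MG-low arrays. The arrays of each fraction lay close together, and every TMRM/MG-high array was below every TMRM/MG-low array. The difference was -0.78 (SE 0.075, limma adjusted p = 0.00062), a level 1.72-fold higher in TMRM/MG-low, and ranked 55 from the most negative.

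Tpcn1, of earlier endosomes, had 9.35, 9.33, 9.38 and 9.29 in TMRM/MG-high against 9.64, 9.21, 9.17 and 9.43 in TMRM/MG-low arrays. The TMRM/MG-high arrays fell inside the spread of the TMRM/MG-low ones (difference -0.03, 95% interval -0.25 to 0.20). The log2 ratio of Tpcn2 to Tpcn1 was 0.75 ± 0.06 in TMRM/MG-high and 1.51 ± 0.17 in TMRM/MG-low (SD, n = 4 each). Tcirg1 and Tpcn2 kept their calls in all 8 fits without 1 array, with differences from -1.05 to -0.93 and from -0.80 to -0.76 and limma adjusted p up to 0.00384 and 0.00371.

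**Figure D4:**
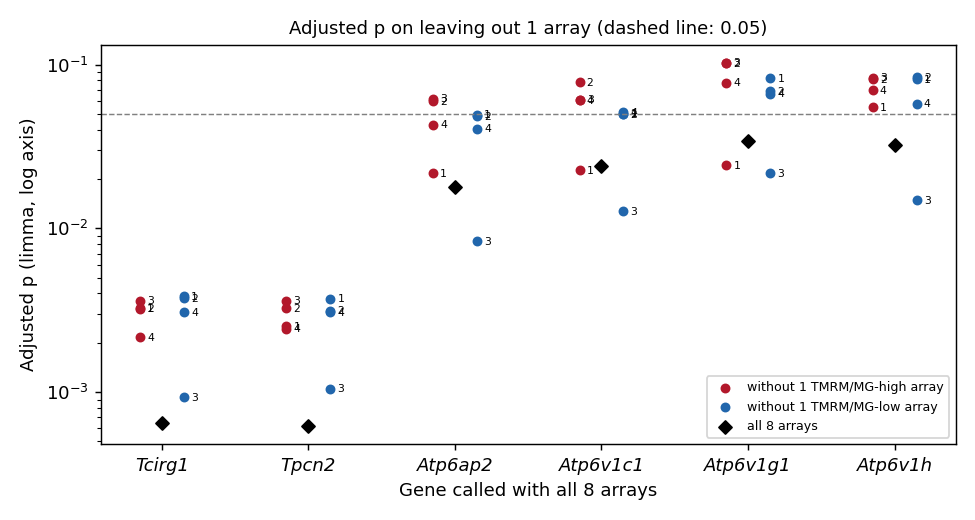
Adjusted p of limma (log y axis) of the 6 called genes with all 8 arrays (diamonds) and without 1 array (circles, coloured by the fraction and numbered by the replicate left out). Tcirg1 and Tpcn2 stay below 0.05 in every fit, and each of the 4 rises crosses it in at least 2.

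Among the ClC proteins, which exchange chloride for protons, Clcn5 had 8.02, 8.18, 7.78 and 8.09 in TMRM/MG-high against 7.26, 7.31, 8.02 and 7.67 in TMRM/MG-low arrays. TMRM/MG-low replicate 3 lay among the TMRM/MG-high values, and the difference of 0.45 missed the threshold (adjusted p = 0.097). Without that array it was 0.61 (limma adjusted p = 0.0151), and higher calls over all probe sets also went from 1173 to 1680. Clcn3 differed by 0.23, Clcn6 by 0.17, the lysosomal Clcn7 by 0.10 and its partner Ostm1 by 0.23, none called (lowest adjusted p = 0.258, of Ostm1).

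The TRPML channels release calcium from lysosomes and are encoded by Mcoln1 (0.14), Mcoln2 (0.13) and Mcoln3 (0.20), and none passed the test (adjusted p = 0.471, 0.533 and 0.321). Tmem175, a lysosomal potassium channel and proton leak, differed by -0.13 (95% interval -0.43 to 0.17). Hvcn1, a voltage-gated proton channel that works with the NADPH oxidase at phagosomes, had 8.10, 8.52, 8.34 and 8.78 in TMRM/MG-high against 8.09, 8.06, 8.01 and 8.51 in TMRM/MG-low arrays and overlapped (0.27, adjusted p = 0.294).

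Set side by side, the median difference was 0.12 for V0, 0.21 for V1, 0.10 for the 3 accessory genes and 0.15 for the channels. For the 6 V0 genes above the negative control median it was 0.10, with 3 positive and 3 negative. The V0 and V1 medians were both 0.14 after a repeated quantile normalization, and 0.10 and -0.011 with the spike-in covariate, so their order depended on the setting. Averaged over the 13 V1 genes, arrays deviated from each gene's own mean by 0.04 to 0.15 in TMRM/MG-high and by -0.18 to 0.01 in TMRM/MG-low. The V1 averages did not overlap, while TMRM/MG-low replicate 3 (0.01) came close to TMRM/MG-high replicate 1 (0.04). That array was the highest of its fraction in 10 of the 13 V1 genes. The V0 averages ran from -0.07 to 0.05 in TMRM/MG-high and from -0.02 to 0.07 in TMRM/MG-low, and those of the channels from -0.05 to 0.13 in TMRM/MG-high and from -0.14 to 0.08 in TMRM/MG-low, both with overlap.

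**Figure D5:**
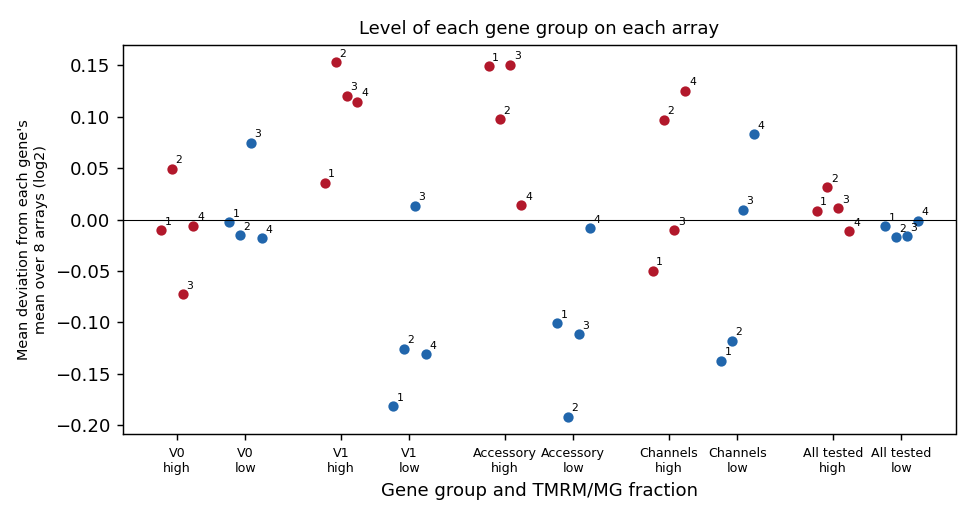
Mean deviation of each array (y axis, log2) from each gene's mean over the 8 arrays, averaged over the V0, V1, accessory and channel genes and over all tested probe sets (x axis, by fraction); points are arrays numbered by replicate. The V1 and accessory averages do not overlap between fractions, and the V0 and channel averages do.

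Other genes of the pathway were counted in lists drawn up with earlier results of these data known, and nothing particular to a list is read from its counts. Over all probe sets 5.28% were called higher, 2.96% were called lower, 15.3% were higher and 10.1% lower at an unadjusted p under 0.05, and 52.1% were positive. Of 12 genes that assemble or regulate the pump 4 rose and none fell (6 and 0 at an unadjusted p under 0.05), with a median of 0.16. Dmxl1, a large subunit of the rabconnectin complex that rejoins V1 to V0, rose by 0.47 (SE 0.088, limma adjusted p = 0.0129). Snx10, an endosomal protein that binds the V-ATPase, rose by 0.58 (SE 0.11), Ncoa7, a TLDc-domain protein that binds the pump, by 0.43, and the assembly factor Vma21 by 0.43 (adjusted p = 0.0497). The other rabconnectin genes measured, Dmxl2 (-0.02), Wdr7 (-0.19) and Rogdi (-0.06), were not called.

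The Ragulator and Rag GTPases tether nutrient sensing to the pump on the lysosome. Of 13 genes 5 rose and none fell (8 and 0 at an unadjusted p under 0.05), with 12 positive and a median of 0.29. Rragc had 10.28, 10.32, 10.33 and 10.28 in TMRM/MG-high against 9.70, 9.43, 10.07 and 9.53 in TMRM/MG-low arrays and rose by 0.62 (SE 0.12, limma adjusted p = 0.0154). TMRM/MG-low replicate 3 was again the highest of its fraction. Rraga (0.35), Fnip1 (0.37) and Lamtor3 (0.45) rose too.

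Of 5 genes of lysosomal transcription control, Mitf rose by 0.33 (SE 0.085, limma adjusted p = 0.0374), while Tfeb (-0.20, adjusted p = 0.236) and Tfe3 (0.17, adjusted p = 0.219) did not pass. Among 14 genes of the lysosomal membrane 1 rose, Tmem192 (0.34), and none fell (6 and 0 at an unadjusted p under 0.05). Of 7 genes of the NADPH oxidase, which consumes protons in phagosomes of dendritic cells, none was called (1 higher and 0 lower at an unadjusted p under 0.05), with Cyba at 0.23 (adjusted p = 0.105) and Cybc1 at -0.17 (adjusted p = 0.324).

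Of 15 other ion carriers of endosomes and lysosomes 2 fell and 1 rose (5 lower and 5 higher at an unadjusted p under 0.05), with a median of 0.01. Trpm2, a calcium-permeable channel opened by ADP-ribose, had 10.58, 10.69, 10.67 and 10.73 in TMRM/MG-high against 11.32, 11.14, 11.31 and 11.20 in TMRM/MG-low arrays. The fractions did not overlap, and Trpm2 fell by 0.58 on the log2 scale (SE 0.081, limma adjusted p = 0.00378). The iron transporter gene Slc11a2 fell by 0.43 (SE 0.099, adjusted p = 0.0263), and Tmem9b, a partner of ClC exchangers, rose by 0.45 (SE 0.12, adjusted p = 0.0385).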

How the data were processed

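Values are the deposited log2 signals, made by the authors with RMA in Affymetrix Expression Console 1.1, per the submitters' processing notes. RMA scales all arrays towards 1 distribution, which can remove a change common to most transcripts. The tested probe sets still differed in distribution between arrays. Quantile normalization of them again changed limma's calls from 1173 higher and 658 lower to 852 and 858, so scaling affects the balance of higher and lower calls. Of the 38 members 28 had positive differences after it, against 29 before. Of 28846 deposited probe sets 6640 controls were set aside and 22206 were tested, of which 19572 carry 1 symbol in the platform annotation. Fractions were compared with limma 3.58.1 (R 4.3.3; lmFit, eBayes, no block, two-sided, Benjamini-Hochberg over the 22206, threshold 0.05). No source used here names the array annotation's genome build. Detection calls were not used; the median of 5222 negative controls marked dim genes (4 of the 38). The number of arrays limits the precision. Members, lists and tests were chosen with earlier results of these data known. Genes named were all 38 and, per list, up to 4 called with the smallest p, or up to 2 where none was called; a few more were named after their values were seen. Same-numbered arrays of the fractions had deviations correlated at r = 0.27, 0.055, 0.015 and 0.039, and nothing in the labels ties numbers to animals, so they were not treated as pairs. The fit was tested on simulated data. Alternatives were a replicate block, other scalings, dim genes left out, another variance model, array weights, other thresholds, averaged probe sets, the spike-in covariate and leaving out each array. Figures used matplotlib 3.10.9.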

Additional observations from a re-analysis of the deposited data

Results flagged for a closer look

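In 4 of the 76 sets of 4 values (38 genes in each fraction) 1 array stood apart from the other 3 by Dixon's criterion, which chance meets in about 1 of 20 sets. Tcirg1 on TMRM/MG-low replicate 3 was 10.94, with the next lowest array of that fraction at 11.25. Atp6v1a on TMRM/MG-high replicate 1 was 9.32, with the next lowest at 9.74. Atp6v1d on TMRM/MG-high replicate 2 was 10.80, with the next highest at 10.60. Hvcn1 on TMRM/MG-low replicate 4 was 8.51, with the next highest at 8.09.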

How the results depend on the processing

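With a replicate block, centred medians, dim genes left out, array weights or averaged probe sets (each gene has 1), the counts stayed at 4 higher and 2 lower and no member's call changed. An intensity trend with a robust fit added Atp6v0e and Atp6v1f. Quantile normalization again lost Atp6v1h (adjusted p = 0.0517), moved the V1 median to 0.14 and turned Atp6ap1 to -0.021. Members higher at an unadjusted p under 0.05 in limma went from 12 to 6 with it. At an adjusted p of 0.01 limma called 0 higher (12 at an unadjusted p under 0.05). Without 1 array 0 to 6 genes were called higher (0 without TMRM/MG-high replicate 2 or 3, with 6 and 8 at an unadjusted p under 0.05) and always 2 lower, and the accessory median ran from 0.050 to 0.23. Higher calls over all 22206 probe sets moved too, from 1173 with all 8 arrays to 183 and 255 without TMRM/MG-high replicates 2 and 3. They were 1680 without TMRM/MG-low replicate 3, so changes of member calls in these fits are not particular to the members. Among uncalled genes whose sign changed there, differences ran from -0.059 to 0.13 (Atp6ap1), -0.078 to 0.065 (Atp6v0a1), -0.032 to 0.11 (Atp6v1b1), -0.12 to 0.023 (Atp6v1c2), -0.10 to 0.056 (Atp6v1g2), -0.015 to 0.21 (Clcn7) and -0.088 to 0.067 (Tpcn1). With the spike-in covariate limma called 0 higher and 0 lower (0 and 3 at an unadjusted p under 0.05), and the medians were -0.011 for V1 and -0.26 for the channels. Signs then turned for Atp6v1c1 (-0.034), Atp6v1g1 (-0.060), Atp6ap1 (-0.013), Atp6v0a2 (-0.070), Atp6v0a4 (0.10), Atp6v1a (-0.65), Atp6v1b1 (-0.20), Atp6v1b2 (-0.25), Atp6v1c2 (0.49), Atp6v1e1 (-0.10), Atp6v1fnb (-0.73), Clcn3 (-0.28), Clcn5 (-0.10), Clcn7 (-0.28), Hvcn1 (-0.34), Mcoln1 (-0.30), Mcoln2 (-0.031), Mcoln3 (-0.035), Ostm1 (-0.38) and Tpcn1 (0.067); the cause was not tested.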
